A study of Drosophila melanogaster with 2 samples.

Results

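Intronic binding sites of the zinc finger protein Jing close to, but outside, promoters were the peaks whose summit lay inside an annotated gene, in no annotated exon, and more than 500 and at most 2000 bp from the nearest annotated transcription start site on either strand. The thresholded peak list held 416 such peaks, called members here, among 2593 peaks (16.0%, Wilson 95% interval 14.7 to 17.5%). Positions chose them within a list that the authors had thresholded on signal and on the agreement of the replicates. Sequence, host genes and differences in signal above that threshold were not used in the choice. The peaks most like them were 603 deep intronic peaks, with a summit over 2000 bp from any start site, and 1059 promoter peaks, with a summit within 500 bp of one.

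The study was chromatin immunoprecipitation with sequencing (ChIP-seq) on *Drosophila melanogaster* whole embryos aged 0 to 16 h, of pooled sexes, from a transgenic strain in which Jing carries GFP at its C terminus. Sonicated chromatin was pulled down through the GFP tag. There was 1 group, with biological replicates 2 and 3, so no condition was compared and spread between samples is given as the values of each replicate. Whole embryos over a wide span of ages were pooled, so a peak does not tell in which cells, or when, the protein was bound.

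Introns near the start of a gene, above all the first intron, are known in flies to hold enhancers, stretches of DNA to which transcription factors bind to switch the gene on in given cells. Jing is known for its part in the development of the midline glia and the tracheal system and in the migration of the border cells of the ovary. Its vertebrate relative AEBP2 is a cofactor of Polycomb repressive complex 2.

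The DNA at several of the strongest of these peaks is shown first, because base composition and short sequences at the summit were what set the summit apart from its own surroundings. Each of the following 5 runs covers 100 bp around a summit, plus strand, of the dm6 assembly. They come from the strongest members that hold within this run, on either strand, the forkhead core TAAACA or the homeodomain core TAATTA, the core letters bound by proteins of those families. Capitals mark the match, and the position after the host gene is that of the run. Chosen for holding a match, the runs do not show how common it is. In 200 bp windows the forkhead core was in 26.0% of the stronger 50% of members and 32.2% of the weaker 50%. The homeodomain core was in 17.3% and 23.6%.

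CG9663 at chr2L:3302149-3302248: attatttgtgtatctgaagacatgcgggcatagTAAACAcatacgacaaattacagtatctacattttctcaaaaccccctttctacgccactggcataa
Trl at chr3L:14759471-14759570: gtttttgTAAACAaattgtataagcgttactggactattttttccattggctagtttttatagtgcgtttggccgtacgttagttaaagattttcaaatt
NFAT at chrX:13640466-13640565: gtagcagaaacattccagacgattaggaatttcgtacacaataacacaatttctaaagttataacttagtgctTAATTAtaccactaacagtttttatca
CG9837 at chr3R:8811648-8811747: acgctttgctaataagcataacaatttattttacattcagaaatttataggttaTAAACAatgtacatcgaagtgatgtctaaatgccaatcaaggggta
norpA at chrX:4324912-4325011: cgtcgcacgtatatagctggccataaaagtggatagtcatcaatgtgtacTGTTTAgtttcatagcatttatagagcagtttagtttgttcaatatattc

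The strongest member of all held neither core within 100 bp, and is shown because of its rank. It lies in the first intron of ush. The runs after it, of 60 bp each, come from the flanks of strong members, with the first marked match of each 419 to 425 bp from the summit, and show the GAGA repeat (GAGAGAG, the kind of repeat bound by GAGA factor) and the GC-rich core GGGCGG of KLF and Sp1 family proteins in capitals. These 5 runs were chosen after the values were seen.

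ush summit at chr2L:481041-481140: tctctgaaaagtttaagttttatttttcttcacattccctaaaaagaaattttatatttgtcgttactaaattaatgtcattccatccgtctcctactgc
ush flank away from the start at chr2L:481480-481539: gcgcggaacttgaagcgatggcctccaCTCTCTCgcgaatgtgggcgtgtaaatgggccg
CG3726 flank toward the start at chrX:5918470-5918529: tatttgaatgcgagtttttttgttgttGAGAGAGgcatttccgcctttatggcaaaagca
CG11050 flank away from the start at chr2L:6613107-6613166: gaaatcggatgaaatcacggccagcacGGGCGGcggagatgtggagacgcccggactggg
CG32772 flank toward the start at chrX:4909896-4909955: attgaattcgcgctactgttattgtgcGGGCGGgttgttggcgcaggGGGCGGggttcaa

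The summits were poor in G and C and their shoulders were rich. Over the 200 bp around the summit the GC content averaged 35.0% ± 6.16 (SD over 416 members). The windows of 200 bp centred 500 bp away on both sides averaged 41.8% ± 6.12. The difference was −6.80 percentage points ± 8.81, and the summit was lower in 330 of 416 members (79.3%, Wilson 95% interval 75.2 to 82.9%). Windows of 200 bp tiled over all introns at the same distances from a start averaged 39.7% ± 7.99 (57206 windows), a level between that of the summits and that of their flanks. At the summit of the Trl member, in an intron of the gene for GAGA factor, GC was 25%, against 44.5% in the flank toward the start and 47.5% in the flank away from it. In windows of 50 bp the members' mean was 31.9% at the summit, 44.3% at 200 bp toward the start and 44.0% at 200 bp away from it.

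**Figure D1:**
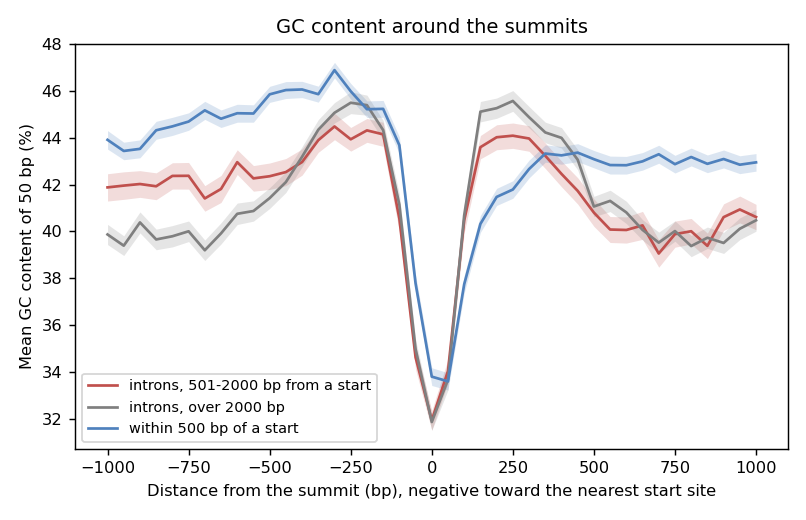
Mean GC content in windows of 50 bp (vertical axis, %) against distance from the summit (horizontal axis, bp, negative toward the nearest start site) for the 416 intronic peaks near starts (red), 603 deep intronic peaks (grey) and 1059 promoter peaks (blue); bands are the standard error over peaks. All 3 classes fall to a narrow minimum at the summit, 31.9% in the intronic peaks near starts, and those stand at 44.3% and 44.0% at 200 bp on either side.

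The same shape was found in the other classes. The mean difference between summit and flanks was −6.69 points ± 8.12 in deep intronic peaks and −8.16 points ± 11.7 in promoter peaks. The share of peaks with the lower GC at the summit differed by −0.938 points between the members and the deep intronic peaks, with a Newcombe 95% interval of −6.05 to 3.999 that holds 0. Flanks toward a start may reach into exons. In the 239 members with no exon base in either flank window the difference was −5.13 points ± 8.55.

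Of 23 consensus sequences searched on both strands, 3 occurred in more summit windows than flank windows, 5 in fewer, and for 15 the 95% interval of the difference held 0. These intervals take summit and flank windows as independent, although each summit has its own flanks. They are not adjusted for the number of sequences searched. The homeodomain core TAATTA was in 85 of 416 summit windows (20.4%), against 11.5% of flank windows and 15.2% of all tiled intron windows. The difference from the flanks was 8.89 points (4.60 to 13.5), and 4.09 points (0.874 to 7.73) in windows of 100 bp. The core was least frequent next to the summit, at 7.93% of windows 200 bp toward the start and 6.97% of windows 200 bp away from it. Deep intronic summits held it in 15.1%, against which the members were higher by 5.34 points (0.608 to 10.2). For the other 22 sequences the interval of the difference between members and deep intronic summits held 0.

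The forkhead core TAAACA was in 121 summit windows (29.1%), against 21.4% of flank windows and 21.3% of tiled introns, a difference from the flanks of 7.69 points (2.62 to 12.9). Among the members in the stronger 50% of the list the difference was 2.27 points and its interval (−4.51 to 9.48) held 0, and with flanks 300 bp away it was 13.6 points (8.67 to 18.7). The consensus of MEF2, the factor of muscle differentiation, was added after the values had been seen. It was in 47 summits (11.3%) and in 6.49% of flank windows, a difference of 4.81 points (1.52 to 8.52). All 3 of these sequences are rich in A and T, as the summits were. The part of base composition in these differences was not tested. The homopolymer AAAAAAA was in 22.4% of summit windows and 21.4% of flank windows, a difference of 0.962 points (−3.78 to 5.97), and ATATATAT was in 2.64% and 2.76%.

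The GAGA repeat was in 14 of 416 summit windows (3.37%), against 9.86% of flank windows, a difference of −6.49 points (−9.08 to −3.62). Tiled introns held it in 3.18%, so the summits stood near the general intron level and the flanks above it. The share was 13.2% (10.3 to 16.8%) at 200 bp toward the start, 10.3% (7.76 to 13.6%) at 200 bp away, and 4.81% (3.13 to 7.31%) at 1000 bp away. In deep intronic peaks the share was 1.99% at the summit and 7.63% at 200 bp toward the start. The repeat GTGTGTGT was in 1.92% (0.978 to 3.75%) of member summits, against 8.17% of flank windows and 4.38% of tiled introns. Its summits thus lay below the general intron level, and at 1000 bp toward the start it was still in 11.1% of windows.

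GGGCGG was in 2.16% of summit windows, against 9.86% of flank windows and 6.15% of tiled introns. ACGTG, the core of the element through which the midline regulator Single-minded acts, was in 11.3% of summit windows, against 18.1% of flank windows and 15.1% of tiled introns. CCGGAA, the core bound by ETS factors, was in 2.40% of summits and 4.81% of flanks, a difference of −2.40 points (−4.40 to −0.0718). With exon-bearing flank windows left out, the ETS difference was −1.12 points and its interval (−3.19 to 1.17) held 0. The other 4 sequences stayed lower at the summits and the 3 others stayed higher. Deep intronic summits held GGGCGG in 2.99%, ACGTG in 10.4% and CCGGAA in 1.99%. These sequences are rich in G and C, in which the summits were poor. The part of base composition in their differences was not tested.

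TATCGATA, the DNA replication-related element of housekeeping promoters, was in 0 of 416 member summits, which allows a share of up to 0.915% by the Wilson interval. Promoter peaks held it in 2.46% of summits, and the difference was −2.46 points (−3.57 to −1.26). Deep intronic summits also held it in 0 of 603. GATAAG, the core of GATA factors, was in 11.3% of member summits and 11.5% of flank windows. A match says only that the letters are present.

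**Figure D2:**
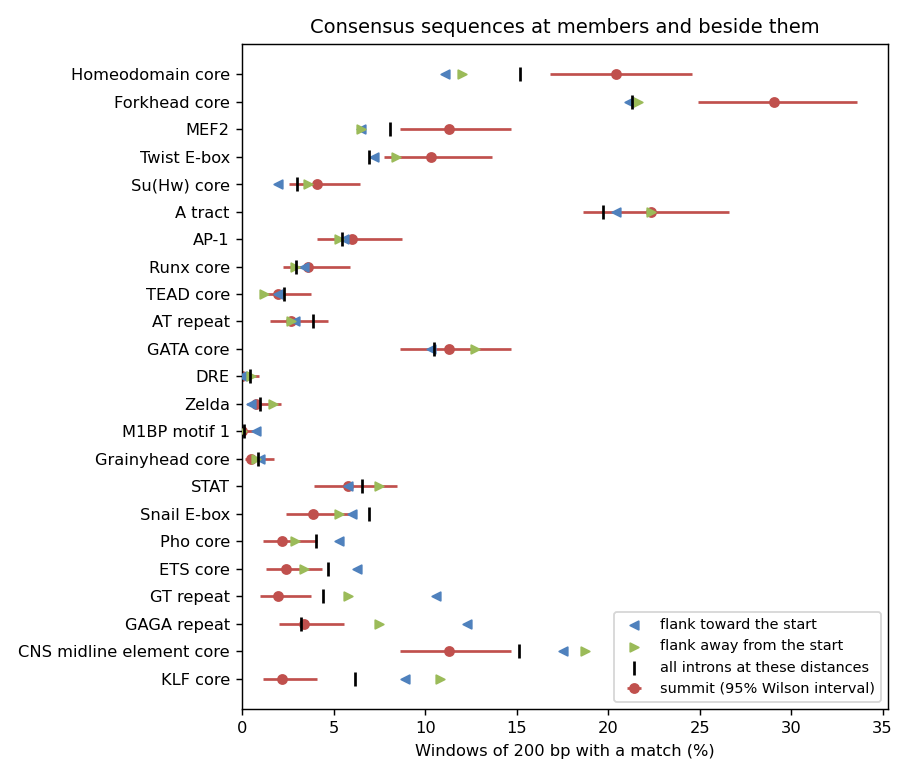
Share of 200 bp windows with at least 1 match (horizontal axis, %) for 23 consensus sequences at the 416 summits (red, Wilson 95% interval), in the flanks centred 500 bp toward (blue) and away from (green) the nearest start, and in all introns at the same distances from a start (black tick). The homeodomain core at 20.4% and the forkhead core at 29.1% stand right of both flanks, and the GAGA repeat at 3.37% stands left of both flanks and near the tick.

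Signal, the strength value that the authors' peak caller gave each peak on a scale not stated, ran from 106 to 1778 in the members, with a median of 177 and quartiles of 131 and 267. Above the median of the whole thresholded list lay 220 members (52.9%). The same held for 263 of 603 deep intronic peaks (43.6%), a difference of 9.27 points (3.03 to 15.4), and for 58.2% of promoter peaks, a difference of −5.28 points (−10.9 to 0.331). Among the 300 strongest peaks of the list were 49 members (11.8%), 6.80% of the deep intronic peaks and 17.1% of the promoter peaks. The intronic peaks near starts thus stood above the deep intronic peaks in signal and, among the strongest 300, below the promoter peaks (−5.31 points, −8.96 to −1.25). All intervals cover counting error only, and they take each peak as separate although some are neighbours.

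All 416 members had a summit within 100 bp in the relaxed list of at least 1 replicate, and 394 (94.7%, 92.1 to 96.5%) had one in both. The list had been thresholded on the agreement of these same replicates, and 94.1% of all its peaks had a summit in both, so the share is a description and no independent check. Deep intronic peaks had one in both in 96.4% and promoter peaks in 91.3%, and the members exceeded the promoter peaks by 3.40 points (0.382 to 5.96). Among the 2593 strongest peaks of each replicate were 304 members in both, 37 in replicate 2 alone, 69 in replicate 3 alone and 6 in neither. The share in both was 73.1% for members and 66.0% for deep intronic peaks, a difference of 7.07 points (1.30 to 12.7). Replicate 3 ranked a member higher in 252 of 394 cases (64.0%, 59.1 to 68.5%), and replicate 2 in 141. Replicate 3 also ranked the higher for 58.3% of deep intronic and 57.5% of promoter peaks found in both. Across these 394 peaks of the same 2 libraries the signals had a Spearman rho of 0.743, given as a description.

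**Figure D3:**
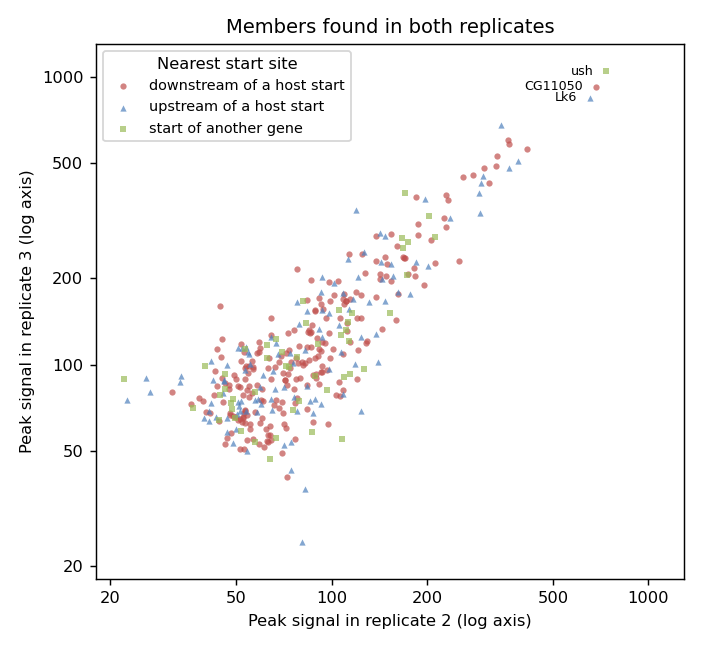
Peak signal in replicate 3 (vertical, log axis) against replicate 2 (horizontal, log axis) for the 394 members found in both, marked by the side on which the nearest start site lies. The members in ush, CG11050 and Lk6 stand apart at the top right, with 653 to 735 in replicate 2 and 846 to 1044 in replicate 3.

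The strongest member, rank 4 of the whole list, lay in the first intron of ush on 2L, 1403 bp upstream of the start of the neighbouring gene cbt. Its signal was 735 in replicate 2 and 1044 in replicate 3, and 1778 in the pooled list. U-shaped is a partner of GATA factors in blood and dorsal development, and Cabut is a zinc finger factor. The next member, rank 6, lay 1029 bp downstream of a start of CG11050, with 682 in replicate 2 and 924 in replicate 3. Its summit was in an intron of only 140 bp, and the peak of 306 bp reached into exons, as did 28 of the 416 members (6.73%). The third, rank 9, lay 966 bp upstream of a start of Lk6, a protein kinase of the Mnk family, with 653 in replicate 2 and 846 in replicate 3. These were the only members among the 10 strongest peaks of both replicates.

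The other 22 of the 25 strongest members ranked between 25 and 135 in the whole list. Hosts that act on chromatin or transcription were HmgD with HmgZ, which code for small DNA-bending proteins (signal 1021), Trl (944), Adf1, for a transcription factor (783), and wde, for a partner of a histone H3 lysine methyltransferase (738). Hosts that act in signalling were NFAT, for a transcription factor of the NFAT family (891), ImpL2, for a secreted insulin-binding protein (633), for, for a cGMP-dependent kinase (605), norpA, for phospholipase C of the photoreceptors (571), and Mad, for the transcription factor of Dpp signalling (559). Enzymes and channels were LPCAT, of phospholipid synthesis (710), schlank, for ceramide synthase (620), and KCNQ, for a potassium channel (570). CG32772 (972), CG9663 (971), CG9837 (870), Reph (839), CG3726 (823), CG31635 (750), CG17834 (748), lncRNA:CR44810 (729), Hyls1 with chif (691) and CG4496 (569) were the others. All 25 were found in both replicates, at ranks up to 292 in replicate 2 and 140 in replicate 3.

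The largest gaps between the replicates, as the ratio of the ranks, were among weak members. A member in SNF4Agamma, which codes for a subunit of AMP-activated kinase, ranked 11314 in replicate 2 and 1459 in replicate 3. A member in ttk, which codes for a repressor of neural fate, ranked 10880 in replicate 2 and 1848 in replicate 3, and CG42258 had 8110 in replicate 2 and 1450 in replicate 3. On the other side tna ranked 1254 in replicate 2 and 18861 in replicate 3, Btk, a tyrosine kinase gene, 1224 in replicate 2 and 5897 in replicate 3, and a CG1677 member near brk, which codes for a repressor of Dpp targets, 749 in replicate 2 and 2875 in replicate 3. The pooled signal of these 6 was 110 to 123, near the lower end of the class.

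Summits thinned out with distance from the start. Per Mb of intron, density was 49.2 (exact Poisson 95% interval 40.5 to 59.2) in the bin nearest to starts, which ends at 750 bp, 38.9 in the bin that ends at 1250 bp and 27.5 in the bin that ends at 2000 bp. Beyond, it was 23.6 between 2000 and 4000 bp and 8.16 (6.98 to 9.49) over 8000 bp. The whole class had 36.4 per Mb (33.0 to 40.1) and the deep intronic peaks 14.6 (13.4 to 15.8). Just inside the near bound were Sclp at 502 bp, CAP at 503 bp and CG14434 at 505 bp, with signals of 259, 217 and 441. Just outside it were peaks in ph-p and SREBP at 492 bp each and CG31612 at 491 bp, with 1947, 218 and 563. At the far bound lncRNA:CR44320 and Ggt-1 at 2000 bp and RhoGAP18B at 1973 bp were inside, with 185, 138 and 170, and tna at 2003 bp, Kdm2 at 2014 bp and CHES-1-like at 2022 bp outside, with 207, 195 and 132.

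**Figure D4:**
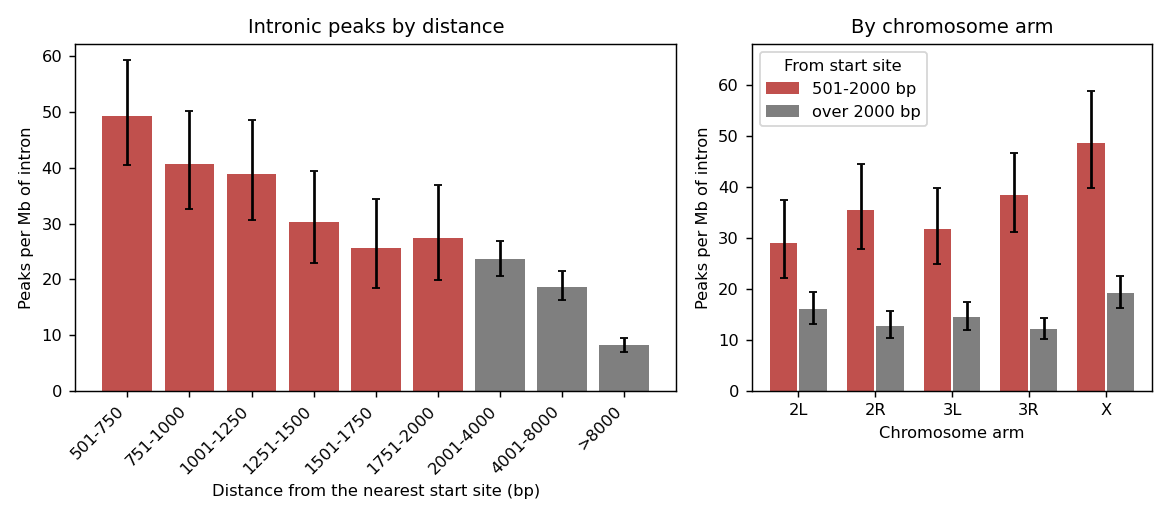
Peaks per Mb of intronic sequence (vertical axes) by distance from the nearest start site (left, bp) and by chromosome arm (right), with exact Poisson 95% intervals, for the intronic peaks near starts (red) and deep intronic peaks (grey). Density is 49.2 in the bin nearest to starts and 8.16 in the farthest, and the X has the tallest bar of the class at 48.6.

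Density also depended on which side of a start the intron lay. A start of the host gene itself was the nearest one for 359 members (86.3%). Of these, 243 lay downstream of that start and 116 upstream of it, in an intron of a longer transcript of the same gene that begins at another promoter. The upstream introns held 61.3 members per Mb (50.7 to 73.6) and the downstream introns 38.9 (34.2 to 44.1), with intervals that did not overlap. For the 57 members whose nearest start belonged to another gene, the density was 17.2 per Mb (13.1 to 22.3). Between 500 and 1000 bp from a host start the density was 80.8 (62.5 to 103) upstream and 42.0 (34.3 to 50.9) downstream. Between 1000 and 2000 bp it was 46.5 (34.5 to 61.3) upstream and 36.9 (31.0 to 43.6) downstream. The intervals overlapped in this farther bin, so the difference by side lay mainly in the nearer one. Median signal was 178 downstream, 167 upstream and 180 near the start of another gene.

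First introns held 342 members (82.2%), counting any annotated transcript, second introns 46 and later introns 28. Deep intronic peaks were in first introns in 61.0%, a difference of 21.2 points (15.7 to 26.4). Introns near a start are more often first introns whatever is bound there, and 64.4% of the tiled windows at the same distances were in one, below the members' interval of 78.2 to 85.6%. The longest intron around a member had a median length of 9606.5 bp, and 86.3% of members lay in one longer than 2000 bp, against 76.0% of tiled windows.

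A peak at the nearby promoter was the exception. Another thresholded peak lay within 500 bp of the nearest start of 56 members (13.5%, 10.5 to 17.1%), against 16.4% for deep intronic peaks (difference −2.96 points, −7.28 to 1.58). Of the 23584 annotated start sites on the 6 chromosome arms, 6.69% had a peak within that distance. Of the 384 host genes, 98 (25.5%) had a promoter peak at any of their starts. The same share over all genes was not computed. The 6.69% counts single start sites, so it is no background for this share. Clusters were more common: 130 members (31.3%) had another summit within 2000 bp, against 23.5% of deep intronic peaks (difference 7.70 points, 2.15 to 13.3) and 17.9% of promoter peaks (difference 13.3 points, 8.40 to 18.4). In 56 cases another member was that near. The rule places members nearer to starts, where peaks were denser, than deep intronic peaks. How much of the difference from deep intronic peaks follows from the rule was not tested.

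Members were denser on the X chromosome. It carried 107 of them at 48.6 per Mb of such intron (39.8 to 58.7), against 308 at 33.8 per Mb (30.2 to 37.8) on the 4 large autosomal arms, where density ran from 29.0 on 2L to 38.3 on 3R. The small chromosome 4 had 1 member, in ey. The protein-coding genes with the most members, CG1677 with 7, NFAT with 5 and Tlk with 4, are all on the X. No autosomal gene hosted more than 3. The intervals take each peak as separate, and the part of such genes in the density of the X was not tested. In the strongest peaks of replicate 2 alone the X had 42.7 per Mb (34.5 to 52.3) and the autosomal arms 33.3 (29.7 to 37.3), with intervals that overlapped. In those of replicate 3 alone the X had 53.2 (44.0 to 63.7) and the autosomal arms 36.05 (32.3 to 40.2). Deep intronic peaks were also denser on the X, at 19.2 per Mb against 13.6. The share of members on the X was 25.7%, which differed by 0.182 points (−5.19 to 5.70) from that of deep intronic peaks.

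The members lay in 384 annotated genes, 370 of them protein-coding, and 39 members lay in more than 1 gene at once. Of the 9005 protein-coding genes with any intron at these distances, 4.11% hosted a member. This share depended on how much such intron a gene has. Of the 2251 genes with the most such intron, 1467 bp or more, 13.4% hosted a member. The share was 2.98% of those with 387 to 1467 bp and 0.0444% of those with 119 to 387 bp. None of the 2252 genes with less did.

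Of these genes, 50 hosted at least 2 members and 12 at least 3. CG1677 on the X and lncRNA:CR44357, which overlaps it, shared 7 members with signals from 118 to 438. The starts nearest to them were those of CBP, Dok, unc-119 and brk. NFAT hosted 5, with signals of 891, 327, 179, 147 and 122, of which 4 lay upstream of an internal start. Tlk, for a kinase that acts on chromatin assembly, hosted 4, from 116 to 299. With 3 each followed CG9837, CHES-1-like, for a forkhead protein, Tpr2, for a co-chaperone, shn, for a zinc finger cofactor of Mad, RhoGAP18B, Doa, for a LAMMER kinase, Shrm, for an actin-binding protein, and psq, for a BTB protein that binds GAGA repeats.

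Among lists of developmental genes, the Egfr pathway had the largest share of hosts. Egfr signalling runs from ligands cut loose by Rhomboid proteases, through the receptor and the Ras and Raf cascade, to the transcription factor Pointed and to inhibitors that the pathway itself switches on. Of 23 genes with such intron, 11 hosted a member (47.8%), against 4.11% of all protein-coding genes. The listed genes had a median of 1500 bp of such intron and all genes 387 bp, so the 13.4% of the genes with the most such intron is the closer background.

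The Egfr hosts lay at several levels of the pathway. On the ligand side were S, for Star, which carries the ligand precursor to the protease (signal 154 in replicate 2 and 283 in replicate 3), and the protease genes rho, ru and stet. The rho member gave 50.03 in replicate 2 and 89.0 in replicate 3, the ru member 96.8 in replicate 2 and 81.2 in replicate 3, and the stet member 70.9 in replicate 2 and 83.3 in replicate 3. The S member was the stronger of these in both replicates. At the receptor level, Egfr itself had a member 1699 bp downstream of a start, with 57.4 in replicate 2 and 68.1 in replicate 3.

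Within the cell, drk, for the Grb2 adaptor, had a member with a signal of 160 in replicate 2 and no summit within 100 bp in replicate 3. Its nearest start was that of the neighbour mars. Raf had 49.5 in replicate 2 and 65.1 in replicate 3. The ETS factor gene pnt hosted 2 members, with pooled signals of 194 and 143. The inhibitor genes were edl, whose product holds Pointed and Yan in check (230 in replicate 2 and 300 in replicate 3), aos, for the secreted antagonist Argos (47.5 in replicate 2 and 82.1 in replicate 3), and sty, for Sprouty (40.5 in replicate 2 and no summit within 100 bp in replicate 3). The edl member, rank 155 of the list, was the strongest of the pathway and had a peak at its start, as aos did.

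Other lists had smaller counts. The 2 backgrounds given, 4.11% of all protein-coding genes and 13.4% of the genes with the most such intron, are not matched to each list. Median such intron was 6833 bp in the FGF list, 579.5 bp in JAK/STAT, 1620 bp in Dpp and BMP and 1652.5 bp in Wnt. Among the lists further below it was 536 bp for Polycomb and Trithorax genes and 257.5 bp for insulator genes. Of all genes with 387 to 1467 bp, where the JAK/STAT and Polycomb medians lie, 2.98% hosted a member. FGF signalling had 3 of 11 genes, ths, for a ligand (pooled signal 268), Sulf1, for a sulfatase of heparan sulfate (129), and sty (129). JAK/STAT had 3 of 12, Stat92E, for the transcription factor (251), Socs36E, for its feedback inhibitor (153), and the phosphatase gene Ptp61F, whose span also holds ru and rho, so that its 2 members are the same peaks. Dpp and BMP signalling had 4 of 22, Mad (559), shn (351), the receptor gene wit (330) and magu (169). Wnt signalling had 3 of 24, sgg, fz and fz3, with 109 to 131.

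The ecdysone cascade, the steroid response, had 6 of 22 genes. ImpL2 had the strongest member (633), followed by the transcription factor genes br (219), Hr4 (187), EcR (182), Eip75B (124) and Eip78C (114.7). The EcR member lay nearest to a tRNA gene and the br member nearest to Mur2B. Neuroblast genes had 4 of 15, brat, for a translational repressor (418), pros, for a differentiation factor (215, with no summit within 100 bp in replicate 2), grh (168) and CycE (142).

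The trachea, the glia and the midline, where Jing acts, were covered by 3 lists. In that order 22.7%, 21.7% and 12.5% of their genes were hosts, against 13.4% of the genes with the most such intron. The listed genes had medians of 3417, 2703 and 2307.5 bp of such intron, against 387 bp in all genes. Tracheal genes had 5 of 22, pnt (194), trh, for the master regulator of the trachea (183), rib (179), rho (139) and Egfr. Glial genes had 5 of 23, pros, pnt, loco, for a regulator of G protein signalling (167), aos and ttk. Midline and axon guidance genes had 3 of 24, trio (267), NetB, for a guidance cue (165), and sim, for the midline regulator Single-minded (124, at 1721 bp downstream of its start). The sim member gave 56.5 in replicate 2 and 55.2 in replicate 3. Counted by the nearest start rather than by the host, 1 midline gene and 3 ecdysone genes had a member.

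Cytoskeleton and adhesion genes had 6 of 34 hosts, led by cno, for Canoe of the adherens junction (495), and Moe, for Moesin (493), with rhea, for Talin, at 226. Muscle genes had 4 of 31, mbc, which acts in myoblast fusion (391), zfh1 (347), kirre (257) and rols (170). Polycomb and Trithorax genes had 3 of 35, Trl (944 and 163), ph-p (245) and kis (140). Trl was also the 1 host among 12 insulator genes.

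At the low end, 1 gene hosted a member among 15 Notch genes (neur, 246), 16 Hippo genes (crb, 161), 15 blood and fat body genes (ush), 25 segmentation genes (ptc, 173) and 24 gap and appendage genes (ey, 108). Hox genes and their cofactors hosted none of 13, with a median of 1500 bp of such intron, as in the Egfr list. No interval was computed for the shares of the lists, many of which rest on few genes. Over all lists together 57 of 374 genes (15.2%) hosted a member. The lists overlap, so pnt, rho, aos and others count in several.

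**Figure D5:**
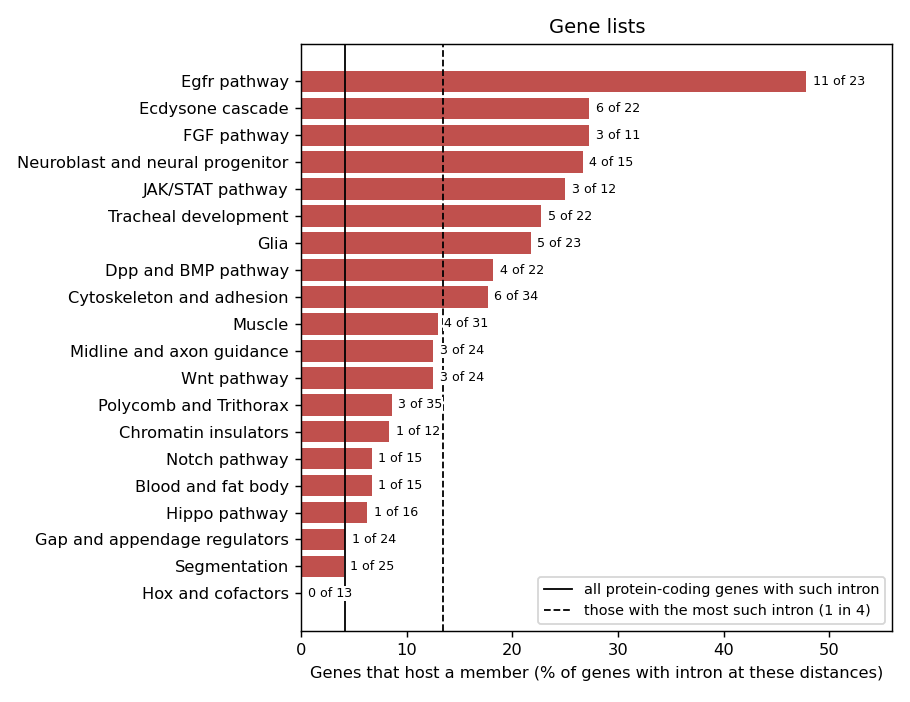
Share of genes that host a member (horizontal axis, %) among the genes of each list with intron at these distances from a start, with the count beside each bar. The solid line is the 4.11% of all such protein-coding genes and the dashed line the 13.4% of the 2251 genes with the most such intron; the Egfr pathway stands at 47.8% and the Hox list at 0.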

How the data were processed

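Peaks came from ChIP-seq of jing-eGFP embryos in biological replicates 2 and 3. The labels give fragments of 200 to 800 bp. The authors called peaks on dm6 against a control, for each replicate and for the pool, and took the thresholded list from an irreproducible discovery rate analysis, per the file headers of the readme texts. For the aligner and the peak caller, names and versions are not given in the sources. The control was not analysed here. The deposited signal value of each peak has no stated scale, and each deposited peak also has a −log10 q-value, as its file format defines the column, 2.01 to 3.53 in the thresholded list. A signal is compared within 1 list, and between lists only ranks are. Depth is unknown, so intervals cover the counting of peaks only. Relaxed lists stop at 30000 peaks, so a match there is a mild criterion.

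Summits (start plus offset) were classed with Ensembl release 115 genes, transposable elements left out (18277 genes, 23697 start sites), and sequence came from the RefSeq Release 6 assembly, whose arm lengths matched the annotation's. The order was promoter (within 500 bp of a start), exon, intergenic, intron. The intron number is the lowest over all transcripts with the summit in an intron. Background windows of 200 bp were tiled over introns 501 to 2000 bp from a start. Intervals are Wilson for shares of peaks or windows, Newcombe for differences and exact Poisson for densities, all at 95%. The shares of genes in the lists and in their backgrounds carry no interval. The classing of positions was checked against a direct search at random places of the genome, and the Newcombe interval against a worked example. A plain letter search was checked on simulated sequences. The GC, density, replicate and gene list steps had no such check. No test between samples was possible with 1 group.

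The members, the 20 gene lists (499 entries, 13 without a gene, 21 matched through older symbols), the consensus sequences and the alternatives were chosen with earlier results of these data known. The rule for named genes takes the 25 strongest members, genes with at least 3 members, up to 4 hosts of each list by signal, the 3 largest rank gaps each way and the 3 peaks either side of each bound. The remaining hosts of the Egfr, ecdysone, tracheal and glial lists were named after their values were seen. Printed summits are up to 6 of the 40 strongest members off 2R with a match to the 3 sequences with the largest excess at summits. Only 2 of the 22 sequences chosen at the outset had an interval above 0, and those were used. Of the 6 summits the rule gave, 1 is not reported here. Tiled windows as a background for intron number and side, the MEF2 consensus, the profiles and the flanks without exons were added after seeing the data. Alternatives were the stronger 50% of the peaks, protein-coding genes only, each replicate left out, other bounds, match distances, windows and flanks, merged summits, and assigning a peak to the gene of the nearest start. Software was matplotlib 3.10.9, scipy 1.17.1, pandas 2.3.3 and numpy 2.4.6 under Python 3.11.15.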

Additional observations from a re-analysis of the deposited data

How the results depend on the processing

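Among the 22 consensus sequences chosen at the outset, no difference whose interval excluded 0 changed sign under an alternative. Of the others among the 22, 11 values of 5 sequences (AT repeat, GATA, Grainyhead, STAT and TEAD) did. The MEF2 consensus is not covered by this comparison. With only the stronger 50% of the thresholded peaks, fewer by construction, the class had 220 members in 217 genes, and 96.8% of them had a summit in both replicates. That share was 80.8% when summits had to lie within 50 bp, 97.8% within 200 bp and 98.1% for peaks overlapping by at least 1 bp. With the starts and spans of protein-coding genes only, 91.8% of members lay nearest to a start of a host gene. Leaving out a replicate meant taking the 2593 strongest peaks of the other replicate's relaxed list. That length was set to the length of the thresholded list, so similar counts of members and genes are in part built in. Leaving out replicates 2 and 3 in turn gave 399 to 445 members, 373 to 398 host genes and 82.5 to 83.0% in first introns. The GC difference ran from −9.07 points (windows of 100 bp) to −5.13 points (only the 239 members with no exon base in either flank window). Of 132 values of the 22 consensus sequences under 6 alternatives, 125 stayed within the interval of the reported value and 7 did not. These 7 were forkhead (2.27 points in the stronger 50% of peaks, 13.6 with flanks 300 bp away), homeodomain (4.09 with windows of 100 bp), GTGTGTGT (−3.005 with windows of 100 bp, −9.13 with flanks 300 bp away), GGGCGG (−4.69 with windows of 100 bp) and AP-1 (3.63 without replicate 3). The interval held 0 for forkhead in the stronger 50% and for the ETS core under 4 alternatives. Some intervals that held 0 in the main setting excluded it under an alternative. For the Twist E-box CATATG this was so without replicate 2 (3.71 points, 0.576 to 7.23), without replicate 3 and with flanks 300 bp away. It was also so for AP-1 without replicate 3 and for STAT with windows of 100 bp. The Snail E-box CACCTG was lower at summits without replicate 2 and with windows of 100 bp. Assigning peaks to the gene of the nearest start gave 45 listed genes in place of 57, with 8 in the Egfr list in place of 11, 3 in place of 6 in the ecdysone list, 1 in place of 3 in the midline list and 0 in place of 1 in segmentation.

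No paired analysis was possible because the series has 1 group. With 2 replicates, no control analysed and depth unknown, a place without a peak cannot be called unbound.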
